A study of Homo sapiens with 24 samples.

Results

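LCK and RAG2 are 2 of the 9822 genes in a table of RNA-seq read counts from MOLT4, a leukaemia line derived from human T-lineage blasts (T-ALL). They were taken by their gene symbols as a pair of T-lineage genes. MOLT4 cells had been exposed to SK-3-91, by its label a degrader of many kinases, or to its solvent DMSO. Cells of each arm were harvested after 1, 4 or 8 h, which gave 6 groups of 4 libraries and 24 libraries in all. All groups were the same line in the same serum-containing medium, and the dose of SK-3-91 is not given in the sources used here. Whether the 4 replicates came from separate cultures is not stated, so each p-value measures only the spread among these libraries, and that spread may be technical.

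LCK encodes a SRC-family tyrosine kinase that is bound by the coreceptors CD4 and CD8 and starts signalling from the T-cell receptor. It phosphorylates the CD3 and zeta chains, which then recruit the kinase ZAP70, and it is itself a target of the kinase CSK and the phosphatase CD45 (PTPRC). RAG2 encodes the partner of RAG1 in the recombinase that cuts antigen receptor genes during V(D)J recombination, and both are known to be expressed in developing lymphocytes and shut off in mature ones. A degrader acts on proteins, whereas the values here are transcript levels, so nothing below measures the amount of LCK or RAG2 protein.

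The sequence just before each transcription start is shown because the counts are per gene and do not say which LCK start was in use, and because the genes differ in base composition there. Both genes matched the RefSeq promoter table of build GRCh38.p14, LCK with 2 starts that lie 22856 bases apart and RAG2 with 1. LCK is known to be transcribed from a distal and a proximal promoter, and the table does not say which of its starts corresponds to either. The 250 bases before each start follow, 5′ to 3′ along the gene. They are chr1:32251015-32251264 (plus strand) and chr1:32273871-32274120 (plus strand) for LCK, and chr11:36598237-36598486 (minus strand) for RAG2. Capitals mark the letters GATAA (the core of GATA sites), TGTGGT (RUNX), AGGAAG (ETS) or AACTG (MYB) on either strand.
LCK upstream start: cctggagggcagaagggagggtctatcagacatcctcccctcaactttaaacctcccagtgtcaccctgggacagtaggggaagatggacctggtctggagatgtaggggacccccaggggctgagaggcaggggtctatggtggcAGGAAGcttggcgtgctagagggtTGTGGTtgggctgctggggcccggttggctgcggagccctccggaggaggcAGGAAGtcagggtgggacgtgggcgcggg
LCK downstream start: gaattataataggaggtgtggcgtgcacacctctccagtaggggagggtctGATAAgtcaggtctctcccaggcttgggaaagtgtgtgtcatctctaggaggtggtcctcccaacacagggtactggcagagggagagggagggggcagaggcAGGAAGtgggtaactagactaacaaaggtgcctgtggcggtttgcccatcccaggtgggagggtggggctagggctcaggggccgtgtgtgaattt
RAG2 start: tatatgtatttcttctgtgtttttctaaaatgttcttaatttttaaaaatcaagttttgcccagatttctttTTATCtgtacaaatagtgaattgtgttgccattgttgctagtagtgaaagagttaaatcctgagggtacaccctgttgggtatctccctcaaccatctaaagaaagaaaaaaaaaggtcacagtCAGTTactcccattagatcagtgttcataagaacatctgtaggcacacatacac
The window before the upstream LCK start held TGTGGT once and AGGAAG at 2 places, and the one before the downstream start held 1 GATAA and 1 AGGAAG. RAG2 held 1 GATAA and 1 AACTG, both on the opposite strand and therefore printed as TTATC and CAGTT. The E-box letters CANNTG, left in lower case, occurred once before the downstream LCK start and once before RAG2. None of these matches overlapped another. Such letters are common: of the table's 35116 windows of the same kind, 20.4% held GATAA, 11% TGTGGT, 28.7% AGGAAG, 34.1% AACTG and 61.8% CANNTG. A match is a description of the sequence and not a binding site. The RAG2 window had a GC content of 34.0%, against 64.4% and 57.6% for the LCK windows and a median of 58.0% over the table.

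Between 6.86 and 14.6 megareads (M) were counted per library. The mean was 14.1, 14.4 and 14.2 M in DMSO at 1, 4 and 8 h and 13.6, 10.8 and 8.3 M in SK-3-91, so depth moved with treatment and time, and its part in the results was not tested. The labelled cell type was checked with 16 T-lineage markers, LCK itself among them, so the check is not independent of LCK. Of the 16, 14 were in the table, among them CD3D, CD3E, CD7, CD1A, CD2, CD5 and CD247, while TRAC and TRBC2 were not analysed here. Their summed level was 5400 to 5510 CPM in DMSO at 1 h and 6390 to 6840 at 8 h, against 6020 to 6250 and 5240 to 6110 in SK-3-91. Against DMSO, edgeR called 8, 6 and 3 of the 14 higher at 1, 4 and 8 h (adjusted p under 0.05). At these times 1, 6 and 11 were lower. Of all genes 24.9%, 42% and 41.3% were called higher and 29.4%, 45.9% and 48.1% lower. The median log2 fold changes of the 14 were 0.13, 0.02 and -0.68, beside 0.01, -0.05 and -0.11 for all genes. Of 10 B-cell markers only BLK and CD79A were in the table, of 10 epithelial and stromal markers only PECAM1, and of 10 myeloid and 8 erythroid markers none. CPM is the number of reads of a gene per megaread counted in its library, after TMM scaling, which sets each library against the bulk of its genes. The values are therefore relative to the other genes, and in bulk RNA fewer cells of a type and less RNA per cell cannot be told apart.

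LCK was an abundant transcript whose TMM-scaled level in SK-3-91 was at 112% and 111% of DMSO at 1 and 4 h and at 42.4% at 8 h. In DMSO it had 7236, 7107, 6948 and 7008 reads at 1 h, 7164, 7010, 7517 and 7306 at 4 h, and 7626, 8228, 7523 and 8583 at 8 h. In SK-3-91 it had 7735, 7287, 7551 and 7497 reads at 1 h, 4990, 5122, 4474 and 4982 at 4 h, and 1578, 1614, 1217 and 1443 at 8 h. The raw counts, which are not corrected for depth, were above all DMSO counts of the same time at 1 h and below them at 4 and 8 h. Depth was also lower in SK-3-91 at 4 and 8 h (means of 10.8 and 8.3 M against 14.4 and 14.2 M). The raw counts alone therefore do not show a fall of LCK relative to other genes. The share of all genes so separated in raw counts was not computed. After scaling, LCK was at 459 ± 6.23 CPM in DMSO and 515 ± 15.8 in SK-3-91 at 1 h (SD, n = 4). It was at 456 ± 13.7 and 507 ± 28.6 CPM at 4 h, and at 518 ± 26.5 and 220 ± 6.97 CPM at 8 h.

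**Figure D1:**
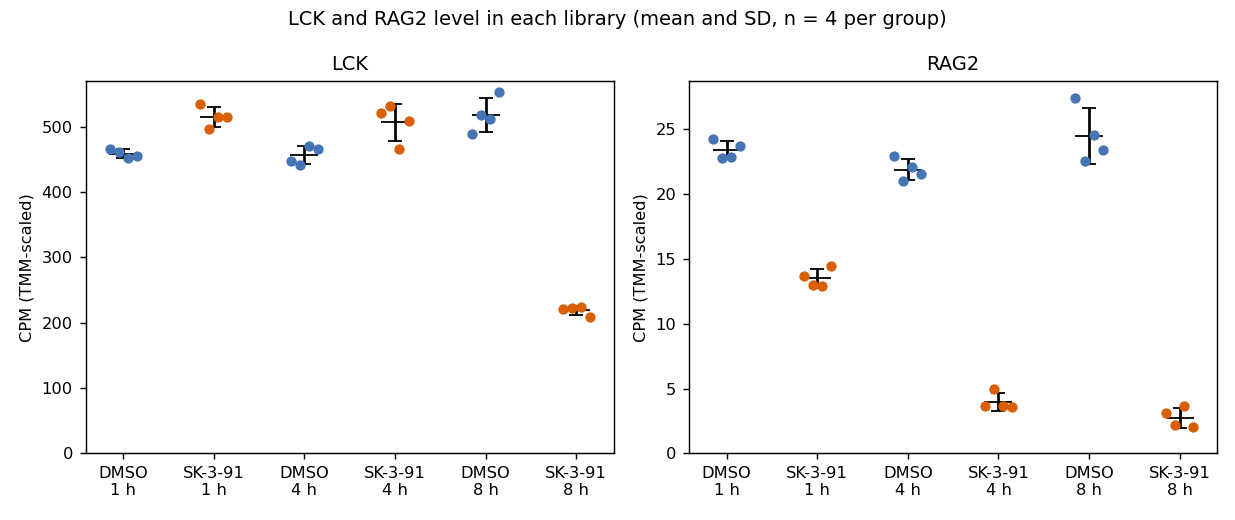
Level of LCK (left) and RAG2 (right) in each of the 24 libraries, in TMM-scaled CPM on linear axes from 0; points are libraries (blue DMSO, orange SK-3-91), with the mean and SD of 4 per group. LCK in SK-3-91 lies far below DMSO only at 8 h, while RAG2 in SK-3-91 is below DMSO at 1, 4 and 8 h.

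Within 1 h LCK had risen slightly. The 4 treated libraries held 535, 496, 515 and 516 CPM and the 4 DMSO libraries 466, 462, 452 and 456, so the groups did not overlap, as was so in this direction for 22.8% of all genes. The log2 fold change was 0.17 ± 0.04 (SE, n = 4 per group; edgeR quasi-likelihood test, adjusted p = 5.0e-04), where 54.3% of the 9822 genes were called at an adjusted p under 0.05 and 24.9% were called higher. At 8 h the treated libraries held 222, 223, 225 and 209 CPM and the DMSO libraries 489, 518, 512 and 553, again without overlap, as for 45.1% of genes in this direction. LCK fell by 1.24 ± 0.04 on the log2 scale (edgeR adjusted p = 3.9e-27), where 89.4% of genes were called and 48.1% were called lower. Of the 9822 genes, 1855 had a lower fold change at 8 h, and the median of all genes was -0.11.

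The direction of LCK at 4 h depended on how the libraries were scaled. Treated libraries held 522, 531, 466 and 510 CPM and DMSO libraries 448, 442, 470 and 466, so treated replicate 3 lay below DMSO replicate 3 and the groups overlapped, whereas 39.6% of genes had all treated libraries above DMSO. The log2 fold change was 0.15 ± 0.04 with TMM (edgeR adjusted p = 6.1e-04), where 87.9% of genes were called and 42% were called higher. With library totals alone it was -0.15 (edgeR adjusted p = 4.6e-04), and limma-trend on the authors' deposited log2 values gave -0.15 as well. With library totals alone 29.2% of all genes were called higher and 58.6% lower at 4 h, against 42% and 45.9% with TMM. Library totals and the deposited log2 values also set the median of all genes at -0.35 and -0.23, against -0.05 with TMM, so that LCK stood above the median gene under each. Relative to that median LCK was higher, and relative to all counted reads it was lower.

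**Figure D2:**
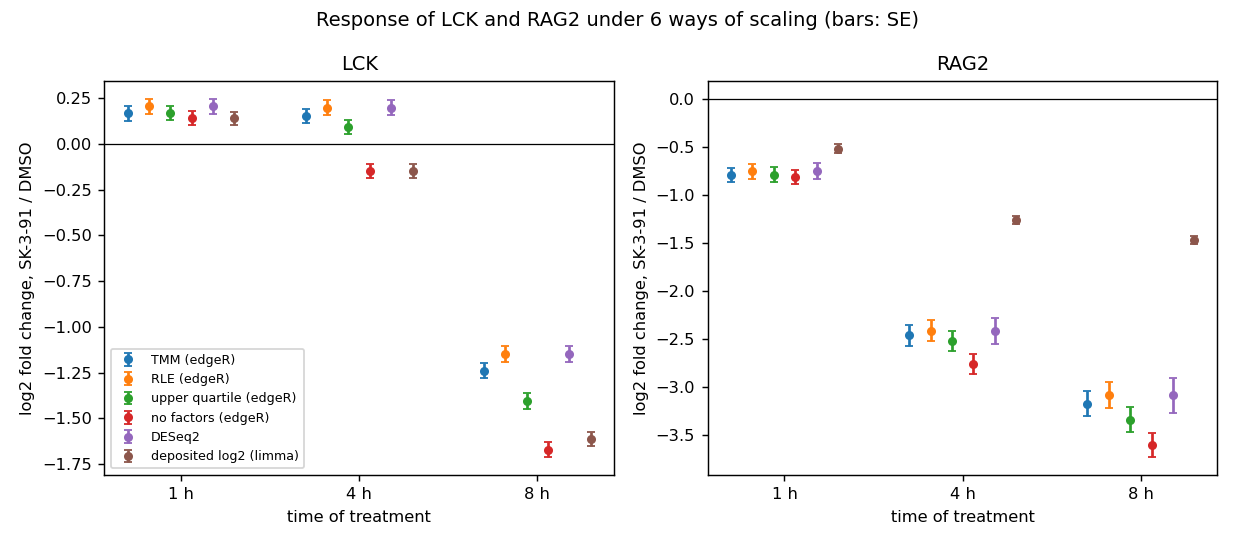
Log2 fold change of LCK (left) and RAG2 (right), SK-3-91 against DMSO, at each time under 6 ways of scaling or testing; points are estimates and bars their SE, on separate linear axes. LCK at 4 h is at 0.15 with TMM and at -0.15 without scaling factors, while RAG2 is below 0 at every time under all 6.

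RAG2 was a low transcript among the genes counted here, and it fell against DMSO at every time. In DMSO it had 376, 350, 351 and 365 reads at 1 h, 366, 334, 353 and 338 at 4 h, and 428, 358, 361 and 363 at 8 h. In SK-3-91 it had 198, 191, 189 and 210 reads at 1 h, 35, 48, 35 and 35 at 4 h, and 22, 16, 20 and 14 at 8 h. No treated library reached the lowest DMSO library of its time, in raw counts or in CPM. Of all genes, 28.2%, 43.7% and 45.1% had treated libraries all below DMSO in CPM at 1, 4 and 8 h. In CPM, DMSO and SK-3-91 averaged 23.4 ± 0.705 and 13.5 ± 0.715 at 1 h, 21.9 ± 0.798 and 3.97 ± 0.676 at 4 h, and 24.5 ± 2.14 and 2.75 ± 0.777 at 8 h (SD, n = 4).

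At 1 h RAG2 stood at 57.7% of its DMSO level, a log2 fold change of -0.79 ± 0.08 (edgeR adjusted p = 9.4e-12). Of all genes 29.4% were called lower at that time, and 28.2% had treated libraries all below DMSO, as RAG2 had. At 4 h RAG2 was at 18.1% of DMSO, a log2 fold change of -2.46 ± 0.11 (edgeR adjusted p = 2.8e-23), where 45.9% of genes were called lower and 43.7% did not overlap in that direction. At 8 h it was at 11.3% of DMSO, a fall of 3.18 ± 0.13 on the log2 scale (edgeR adjusted p = 1.7e-24). At that time 48.1% of genes were called lower and 45.1% did not overlap in that direction. By size of change, 538, 257 and 125 of 9822 genes had a lower fold change than RAG2 at 1, 4 and 8 h.

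Few reads stood behind the late RAG2 values. Summed over the 4 libraries of a group, DMSO and SK-3-91 had 1442 and 788 RAG2 reads at 1 h, 1391 and 153 at 4 h, and 1510 and 72 at 8 h. Per counted read this was 1.76 times more in DMSO at 1 h (95% interval 1.61 to 1.92), 6.79 times at 4 h (5.74 to 8.08) and 12.2 times at 8 h (9.65 to 15.7). The intervals cover counting error only, and they did not overlap between 1, 4 and 8 h. The same sums for LCK were 28299 and 30070, 28997 and 19568, and 31960 and 5852 reads, so counting error was small beside its changes. RAG2 is also uncertain in another way: 25.96% of its exon sequence overlaps exons of the other strand, 16.8% in RAG1 and 9.17% in C11orf74, which was not analysed here. Without a stated strand setting, reads from these genes cannot be told apart there, while LCK shares no exon bases with the opposite strand.

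The genes also differed in when the response changed. From 1 to 4 h the RAG2 response grew by -1.67 ± 0.14 on the log2 scale (edgeR adjusted p = 5.8e-14), where 80.4% of genes were called, 40.6% higher and 39.9% lower, and from 4 to 8 h by a further -0.71 ± 0.21 (edgeR adjusted p = 0.0026), where 68.6% were called, 35.6% higher and 33% lower. For LCK the change from 1 to 4 h was -0.01 ± 0.06 (edgeR adjusted p = 0.81), but -0.29 with library totals alone (edgeR adjusted p = 5.3e-06). From 4 to 8 h the LCK response fell by 1.39 ± 0.06 (edgeR adjusted p = 3.9e-22). In DMSO alone LCK was higher at 8 h than at 1 h by 0.17 ± 0.04 (edgeR adjusted p = 3.9e-04), where 47.3% of genes were called, 22.6% higher and 24.7% lower, and the RAG2 difference was 0.07 ± 0.07 (edgeR adjusted p = 0.45).

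Ordered by mean CPM, LCK stood highest in DMSO at 8 h, then in SK-3-91 at 1 and 4 h, in DMSO at 1 and 4 h, and last in SK-3-91 at 8 h. The first 3 of these groups lay within 1 SD of each other, as did DMSO at 1 and 4 h. RAG2 stood highest in DMSO at 8, 1 and 4 h, then in SK-3-91 at 1, 4 and 8 h. The libraries of neighbouring DMSO groups overlapped, and those of SK-3-91 at 4 h (3.58 to 4.98 CPM) overlapped those at 8 h (2.03 to 3.69 CPM). Per kilobase of gene width, LCK was at 162 ± 2.2 CPM in DMSO at 1 h, above 97.8% of genes, and at 77.4 ± 2.46 CPM in SK-3-91 at 8 h, above 89.4%. RAG2 was at 8.12 ± 0.245 CPM per kilobase in DMSO at 1 h, above 38.5% of genes, and at 0.956 ± 0.27 in SK-3-91 at 8 h, above 7.23%. No gene as deposited had a mean count under 32.04 per library, so these shares hold among detected genes only.

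The ratio of LCK to RAG2 reads within a library does not depend on scaling factors. It was 19.2, 20.3, 19.8 and 19.2 in DMSO at 1 h and 39.1, 38.2, 39.95 and 35.7 in SK-3-91, a difference in mean log2 ratio of 0.96. At 4 h it was 19.6, 21.0, 21.3 and 21.6 in DMSO and 143, 107, 128 and 142.3 in SK-3-91, a difference of 2.63. At 8 h it was 17.8, 23.0, 20.8 and 23.6 in DMSO and 71.7, 101, 60.9 and 103 in SK-3-91, a difference of 1.95. Treated libraries lay above all DMSO libraries at each time, with an exact two-sided permutation p = 0.0286 (n = 4 against 4), the smallest that this design allows, and the same value after Benjamini-Hochberg adjustment over 6 ratios. The difference was larger at 4 h than at 1 or 8 h, and the contrast between times was not tested for this ratio. The pair was chosen with earlier results of these data known. How many other gene pairs separate in this way was not computed.

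RAG1, the catalytic partner of RAG2 and its neighbour on the opposite strand, fell less. Its mean was 157 ± 3.65 CPM in DMSO and 104 ± 2.68 in SK-3-91 at 1 h, 149 ± 4.29 and 71.8 ± 5.55 at 4 h, and 143 ± 15.8 and 82.6 ± 5.83 at 8 h (SD, n = 4). The log2 fold changes of RAG1 were -0.60 ± 0.05, -1.05 ± 0.06 and -0.79 ± 0.06 (edgeR adjusted p = 2.2e-12, 7.0e-20 and 1.7e-15), so it stood at 66%, 48.2% and 57.7% of DMSO. The ratio of RAG1 to RAG2 reads averaged 6.74 ± 0.351 in DMSO and 7.71 ± 0.477 in SK-3-91 at 1 h, 6.81 ± 0.25 and 18.5 ± 3.54 at 4 h, and 5.86 ± 0.594 and 32.2 ± 10.4 at 8 h. The differences in mean log2 ratio were 0.19, 1.42 and 2.40, each with an exact two-sided permutation p = 0.0286 (n = 4 against 4). This ratio was added after the data were seen. At 8 h it rests on 14 to 22 RAG2 reads per treated library. In addition, 16.8% of RAG2 exon bases overlap RAG1 exons, and without a stated strand setting RAG1 reads may be counted there.

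**Figure D3:**
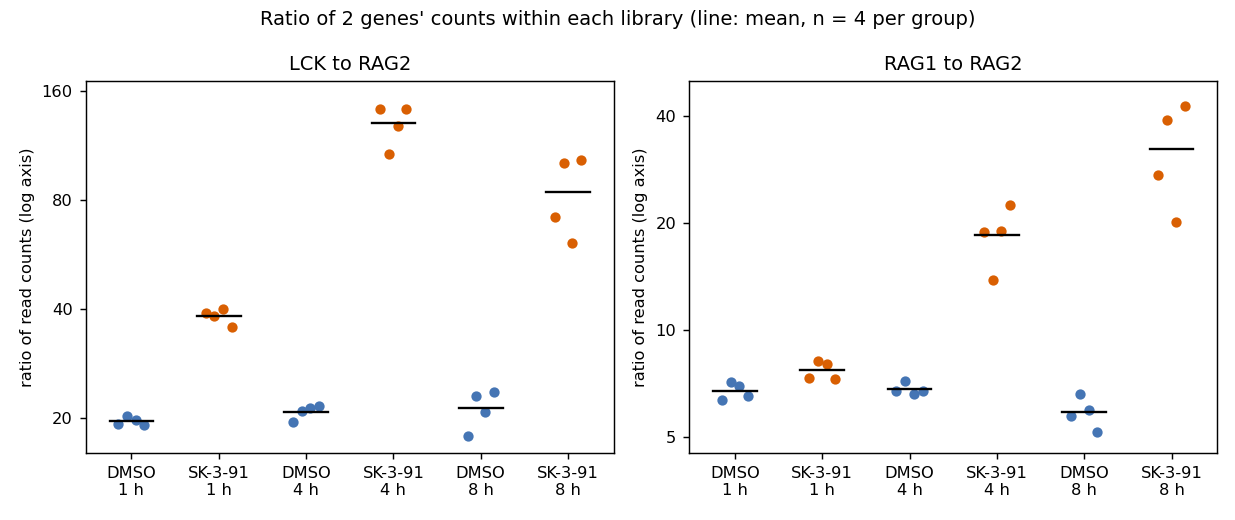
Ratio of LCK to RAG2 reads (left) and of RAG1 to RAG2 reads (right) within each library, on log axes; points are libraries (blue DMSO, orange SK-3-91) and lines the mean of 4. LCK to RAG2 goes from about 21 in DMSO to a mean of 130 in SK-3-91 at 4 h, and RAG1 to RAG2 reaches a mean of 32.2 at 8 h.

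The genes around each locus did not move as a block, but both directions were also common over all genes. Of all genes 24.9%, 42% and 41.3% were called higher at 1, 4 and 8 h, and 29.4%, 45.9% and 48.1% lower. Next to LCK, HDAC1, a histone deacetylase, rose at 1, 4 and 8 h by 0.19, 1.14 and 1.59, and EIF3I, a translation initiation factor subunit, by 0.23, 0.82 and 0.59 (edgeR, log2 scale). MARCKSL1, an actin-binding protein, rose by 0.17, 0.68 and 0.33, the last of which was -0.10 with library totals alone. IQCC fell at all 3 times (-1.35, -2.42 and -1.53), and TMEM234 (0.10, -1.26 and -0.46) fell at 4 and 8 h. TSSK3 was at 0.23, 1.60 and 1.76, with the last 2 called. IQCC, TMEM234 and TSSK3 are uncertain because 20% or more of their exon bases or 32-base words are shared with other genes.

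Beside RAG1 and RAG2, TRAF6, a ubiquitin ligase of innate immune signalling, fell (-1.08, -0.95 and -0.36 on the log2 scale). COMMD9 was at 0.09, 0.60 and 0.72, API5, an inhibitor of apoptosis, at 0.16, 0.72 and 0.42, and HSD17B12, a fatty acid elongation enzyme that is uncertain by the same limit, at 0.07, 0.41 and 0.24. TTC17 was at 0.16, -0.51 and -0.73. API5 and HSD17B12 at 8 h turned to -0.02 and -0.20 with library totals alone. None of the 5 measured neighbours other than RAG1 fell as far as RAG2 at 4 or 8 h.

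**Figure D4:**
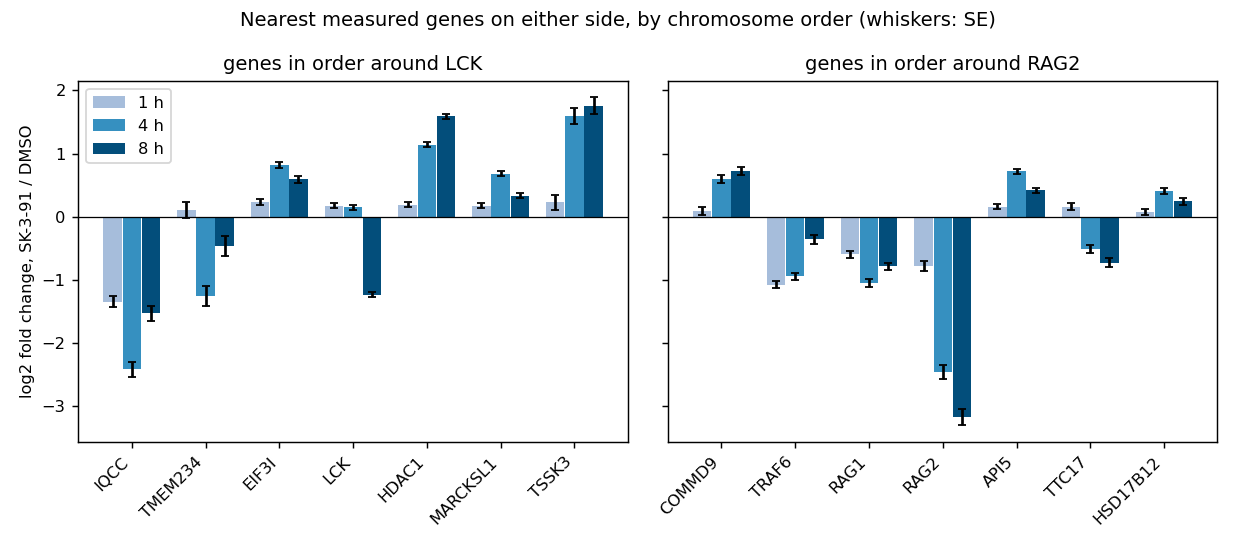
Log2 fold change, SK-3-91 against DMSO, of LCK (left) and RAG2 (right) and the 3 measured genes on each side in chromosome order, not to distance; bars are 1, 4 and 8 h from light to dark and whiskers the SE, from 4 libraries per group. HDAC1 next to LCK rises by 1.59 at 8 h where LCK falls by 1.24, and RAG2 has the lowest bars of its panel at 4 and 8 h.

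By the root mean square difference of centred log2 CPM over the 24 libraries, among 9187 genes with a mean of at least 5 CPM, the genes most like LCK were TIMMDC1 (0.08), RFXANK (0.09), ACAD9 (0.09), ARMC10 (0.09) and CCT4 (0.09). TIMMDC1, RFXANK and ARMC10 are uncertain for shared sequence. Their log2 fold changes at 8 h were -1.27, -1.21, -1.06, -1.19 and -1.28, beside -1.24 for LCK. CCT4 encodes a subunit of the TRiC chaperonin, and ACAD9 and TIMMDC1 encode assembly factors of mitochondrial complex I. The genes most like RAG2 were TNFRSF1A (0.20), ZNF480 (0.22), IRX3 (0.23), ZSCAN26 (0.25) and ZSWIM4 (0.25, uncertain for shared exons). TNFRSF1A, a receptor for tumour necrosis factor, was at -0.69, -2.82 and -3.02 at 1, 4 and 8 h, and the zinc-finger gene ZNF480 at -0.94, -2.53 and -3.24. The libraries share treatment and depth, so a small difference describes a like pattern and no more.

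In the T-cell receptor list, which holds receptor chains, coreceptors and proximal signalling genes including LCK, 30 of 37 genes were measured. At 1, 4 and 8 h 12, 12 and 14 of them were higher and 7, 14 and 15 lower, with medians of 0.09, -0.11 and -0.16 beside 0.01, -0.05 and -0.11 for all genes. Of all genes, edgeR called 24.9%, 42% and 41.3% higher and 29.4%, 45.9% and 48.1% lower at these times. The list's counts at 4 and 8 h were near those shares, and at 1 h its share of higher genes was above that of all genes, a difference that was not tested. With library totals alone 7 of the 30 were higher and 20 lower at 8 h, where 28.3% and 62.6% of all genes were. The adhesion receptor CD2 was at -0.05 at 1 h and then fell by 3.07 and 3.78 on the log2 scale, further than LCK. CD247, the zeta chain that LCK phosphorylates, was at 0.12, -1.0 and -1.92, and the inhibitory receptor CD5 at 0.09, -1.05 and -1.88. SH2D2A, an adaptor that binds LCK, was at 0.27, -0.97 and -2.27, and MALT1, a protease of antigen receptor signalling, at 0.00, -1.19 and -1.77. By contrast CD3E, another receptor chain, rose by 0.22, 1.00 and 1.15, and the adaptor GRB2 by 0.21, 1.04 and 1.83.

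Of 21 genes whose products act on LCK, 20 were measured: 8, 8 and 8 were higher and 4, 10 and 10 lower, with medians of 0.11, -0.07 and -0.21 beside 0.01, -0.05 and -0.11 for all genes. At 4 and 8 h these counts were near the shares of all genes called higher (42% and 41.3%) and lower (45.9% and 48.1%), while at 1 h 24.9% and 29.4% of all genes were so called. Scaled by library totals alone, 4 of the 20 were higher at 8 h, where 28.3% of all genes were. CSK, the kinase that phosphorylates the inhibitory tyrosine of LCK, was at 0.10, -1.05 and -2.09, so at 4 h it had fallen where LCK had not on the TMM scale. PTPRC, the phosphatase that removes this phosphate, rose by 0.14, 0.59 and 0.42, the last of which was -0.01 with library totals alone. PTPN6 (SHP-1), a phosphatase that dampens receptor signalling, was at 0.12, -1.49 and -3.01, SIT1, a transmembrane adaptor, at 0.03, -0.95 and -2.33, and UBASH3A, a negative regulator of receptor signalling, at -0.13, -1.69 and -1.81. SOCS6, an adaptor that brings LCK to a ubiquitin ligase, was at -0.09, 1.78 and 2.69. The coreceptor CD4 rose by 0.24 and 0.80 at 1 and 4 h and fell by 0.60 at 8 h.

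LCK had the second highest level of the 11 SRC-family and related kinase genes measured (of 20 listed), at 162 CPM per kilobase in DMSO at 1 h, after ZAP70 at 213. FYN, the other SRC-family kinase of T cells, was at 35.4. In this list 3, 3 and 4 genes were higher and 6, 6 and 7 lower at 1, 4 and 8 h, with medians of -0.14, -0.35 and -0.71 beside 0.01, -0.05 and -0.11 for all genes. Over all genes 24.9%, 42% and 41.3% were called higher and 29.4%, 45.9% and 48.1% lower. With library totals alone 2 of the 11 were higher at 8 h, and at 4 h 9 were lower, where 28.3% and 58.6% of all genes were. The kinases did not share 1 time course. YES1 fell by 1.07 at 1 h and then rose by 1.58 and 2.45 on the log2 scale, while ABL2 fell throughout (-0.63, -1.71 and -1.89), as did ABL1 (-0.14, -0.79 and -0.93). ZAP70, which docks on the chains that LCK phosphorylates, rose by 0.27, 0.79 and 0.45, but was at 0.02 at 8 h with library totals alone. FYN was at -0.03, -0.16 and 0.48, the last of them 0.05 with library totals alone. BLK, a SRC-family kinase best known from B cells, was at 0.20, 0.07 and -0.76, its value at 4 h turning to -0.23 with library totals alone.

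Among V(D)J recombination genes, 14 of 18 were measured, and RAG2 had the lowest fold change of these at 4 and 8 h. At 1, 4 and 8 h 5, 8 and 8 were higher and 4, 5 and 6 lower, with medians of 0.06, 0.57 and 0.19 beside 0.01, -0.05 and -0.11 for all genes. The shares of all genes called were 24.9%, 42% and 41.3% higher and 29.4%, 45.9% and 48.1% lower. Scaled by library totals alone, 3 of the 14 were higher and 9 lower at 8 h, where 28.3% and 62.6% of all genes were. RAG2, RAG1, LIG4, the ligase that closes the joints, and POLM, a gap-filling polymerase, were lower at all 3 times. LIG4 was at -0.60, -0.89 and -0.67, and POLM at -0.25, -0.77 and -0.69. XRCC4, the partner of LIG4, was at 0.23, -0.16 and -1.09, and TP53BP1, which guards broken ends and is uncertain for shared sequence, at 0.11, -0.71 and -1.24. DNTT, the terminal transferase that adds bases at the joints, rose by 0.25, 0.99 and 0.26, the last of them -0.17 with library totals alone. XRCC6 (Ku70), which holds the broken ends and is uncertain likewise, rose by 0.18, 0.83 and 0.79, and PAXX, an end-joining cofactor, was at 0.05, 0.66 and 0.83. LIG4 and POLM were named after their values were seen.

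**Figure D5:**
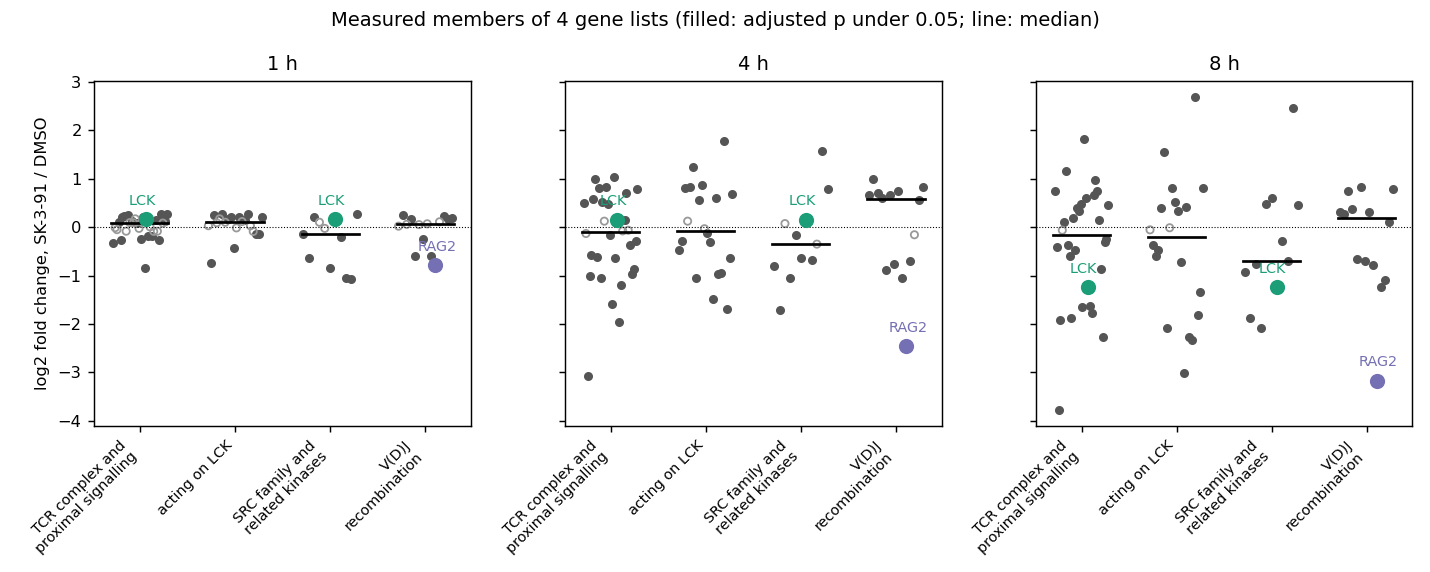
Log2 fold change, SK-3-91 against DMSO, of each measured member of 4 gene lists at 1, 4 and 8 h; filled points have an edgeR adjusted p under 0.05, open points do not, and lines are list medians. LCK (green) sits above the median of its lists at 1 and 4 h and below it at 8 h, and RAG2 (purple) is the lowest V(D)J gene at 1, 4 and 8 h.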

How the data were processed

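RNA-seq libraries of MOLT4 were made from total RNA and read as single-end reads of 50 bases, per the labels' protocols. The authors' deposited table holds whole-number read counts per gene, not normalized, with a gene width in bases that served for levels per kilobase. The submitters' processing notes name edgeR and the build hg19. Aligner, counter, strand setting and annotation are not given in the sources used here. Named for RPKM, the authors' other table held log2 values as deposited; their antilog was linear in the count, whatever the gene width, with an offset that shrinks the changes of low genes.

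Counts were tested over all 9822 genes in R 4.3.3 by the quasi-likelihood F test of edgeR 4.0.16, on group means over 24 libraries with TMM factors. filterByExpr removed 0 genes, and p-values were adjusted by Benjamini-Hochberg at 0.05. SE is the standard error implied by the F statistic. Alternatives were RLE, upper-quartile or no factors, DESeq2 1.42.0, limma 3.58.1 (limma-trend on the deposited log2 values), other filters, a replicate block, single times and leaving out each library. Ratios within libraries were compared with exact permutation tests, and intervals of summed counts are 95% exact binomial intervals. The edgeR script was tested on simulated data.

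Members and gene lists were chosen with earlier results of these data known. Genes named are LCK and RAG2, for each the 5 genes of nearest pattern and 3 neighbours a side, up to 6 called genes per list with the largest change at 8 h, and 9 fixed genes. Genes sharing 20% or more of their exon bases with the opposite strand, or of their 32-base words with other genes, by a GENCODE annotation of another build, are given as uncertain.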

Additional observations from a re-analysis of the deposited data

Results flagged for a closer look

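In the 12 groups of 4 libraries (LCK and RAG2 in 6 groups each), 2 libraries stood apart from the other 3 of their group, where chance sets apart about 1 in 20 groups. LCK in SK-3-91 replicate 4 at 8 h was low, at 7.71 on the log2 CPM scale (209 CPM, the others 222 to 225). RAG2 in SK-3-91 replicate 2 at 4 h was high, at 2.36 on the log2 CPM scale (48 reads, the others 35 each).

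The response differed between times in 3 tests of the difference itself. For RAG2 it changed by -1.67 on the log2 scale from 1 to 4 h and by -0.71 from 4 to 8 h, and for LCK by -1.39 from 4 to 8 h. Such a call was usual: edgeR called 80.4% of all genes from 1 to 4 h (39.9% lower) and 68.6% from 4 to 8 h (33% lower). The tests of successive times share the libraries of the middle time.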

How the results depend on the processing

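With library totals alone, and in brackets with limma-trend on the deposited log2 values, signs turned for some genes. At 4 h LCK was at -0.15 (-0.15), TIMMDC1 at -0.23 (-0.20), RFXANK at -0.16 (-0.14), ACAD9 at -0.22 (-0.18), ARMC10 at -0.17 (-0.13) and BLK at -0.23 (-0.21). At 8 h MARCKSL1 was at -0.10 (-0.11), API5 at -0.015 (-0.015), HSD17B12 at -0.20 (-0.16), DNTT at -0.17 (-0.17) and PTPRC at -0.009 (-0.010). The change in the LCK response from 1 to 4 h passed the threshold, at -0.29 (-0.29). RAG2 kept its direction and call at 1, 4 and 8 h under all alternatives run, but on the deposited log2 values its fold changes shrank to -0.52, -1.26 and -1.47. LCK at 1 h (0.14 to 0.21) and 8 h (-1.67 to -1.15) also kept direction and call. Both other filters removed no gene. Leaving out each library changed no call of LCK or RAG2 in edgeR. The LCK to RAG2 log2 ratio differences then ranged from 0.94 to 0.99 at 1 h, from 2.58 to 2.72 at 4 h and from 1.84 to 2.10 at 8 h, where 4 libraries against 3 cannot reach the threshold in the exact test. With the replicate block these differences were 0.96, 2.63 and 1.95, with an exact sign-flip p = 0.125, the smallest that 4 pairs allow. Same-numbered libraries did not deviate together (r from -0.12 to 0.02 over 12 pairs, none best with its own number), so no effect shared by a number was seen. The check cannot say whether same-numbered libraries were handled together. With the replicate block the genes called at 1 h, genes called at 4 h and genes called at 8 h numbered 5339, 8627 and 8773, against 5337, 8632 and 8783 without it. RAG2 had 14 to 22 reads per treated library at 8 h, which limits its precision. The dose, strand setting and independence of the replicates are not known.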

Other observations

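Transcription factors of thymocyte development, several of which are known to act on the genes above, were more often called lower than higher. Of 31 listed, 23 were measured, and 3, 5 and 6 were higher and 12, 18 and 16 lower at 1, 4 and 8 h, with medians of -0.16, -0.39 and -0.53 beside 0.01, -0.05 and -0.11 for all genes. Of all genes 24.9%, 42% and 41.3% were called higher and 29.4%, 45.9% and 48.1% lower. GFI1, a transcriptional repressor, fell throughout (log2 fold changes -1.05, -1.35 and -1.51). RUNX3, a factor of the CD8 lineage, likewise (-0.69, -1.0 and -1.46), and TCF7, an early T-lineage factor, rose by 0.25 and then fell by 0.45 and 1.11. ZBTB17 was at -0.01, 1.35 and 2.36.

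Of 24 surface markers of thymocytes listed, 18 were measured, with 5, 11 and 7 higher and 5, 5 and 9 lower at 1, 4 and 8 h. Their medians were 0.06, 0.40 and -0.19 beside 0.01, -0.05 and -0.11 for all genes. Of all genes 24.9%, 42% and 41.3% were called higher and 29.4%, 45.9% and 48.1% lower. At 8 h the list's counts were near those shares. At 4 h its share of higher genes was above that of all genes and its share of lower genes below, a difference that was not tested. CD1D, which presents lipids, fell (-0.33, -2.79 and -2.75), the homing receptor CCR9 was at -0.07, -2.10 and -1.49, and CD1B was at 0.06, -0.04 and -1.32. CD7 rose by 0.28, 1.05 and 1.25, and CD52 was at -0.03, 1.44 and 2.60.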
